A study of Mus musculus with 4 samples.

Results

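MIR221, MIR222, MIR29A and MIR22HG are loci that give rise to the microRNAs miR-221, miR-222, miR-29a and miR-22, and their transcripts were read by 1 probe set each on whole-transcript arrays of SW620 cells. SW620 is a human colon carcinoma cell line. The members were taken by the gene symbol of the platform annotation. They comprise these 4 symbols, which were chosen by their measured rise in log2 signal after F5446, and every other symbol that begins with MIR29. The second rule added 3 further loci of the miR-29 family, MIR29B1, MIR29B2 and MIR29C, and 5 probe sets of 4 symbols that share only the prefix, MIR2909, MIR296, MIR298 and MIR299. In all there were 12 probe sets of 11 symbols, out of 1264 named for a microRNA locus, 16098 with any gene symbol and 53617 on the array.

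The study compared SW620 cells given 50 nM F5446 for 2 days (2 arrays) with untreated SW620 cells, labelled Ctrl (2 arrays). F5446 is a small molecule described as selective for SUV39H1, a methyltransferase of lysine 9 on histone H3. All cells grew in RPMI medium with fetal bovine serum. The series describes the 2 arrays of a group as biological replicates. It does not state whether separate cultures were used, so the errors and p-values below cover only the spread between these arrays.

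A microRNA begins as a hairpin within a longer primary transcript. The nuclear Drosha and DGCR8 complex cuts the hairpin out, exportin 5 carries it to the cytoplasm, and Dicer trims it to the mature strand, which guides an Argonaute protein to messenger RNAs through its seed. The hairpins of miR-221 and miR-222 lie side by side on the X chromosome and are made from a common primary transcript. MIR29A is likewise paired with MIR29B1, and MIR29B2 with MIR29C at a second locus. MIR22HG is a long non-coding RNA whose gene also holds the miR-22 hairpin, and it is known to be induced by cell stress. In carcinoma cells miR-221 and miR-222 are known for repressing the CDK inhibitor CDKN1B, and miR-29 for repressing DNA methyltransferases and collagens. The probe sets read precursor or host transcripts, and mature microRNAs were not measured here.

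The mature 3p strands show which members address the same seed. They are printed from the mouse RefSeq records of build GRCm38.p6, since the human records were not used here, with the seed (bases 2 to 8) in capitals.
Mouse miR-221-3p: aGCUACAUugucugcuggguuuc
Mouse miR-222-3p: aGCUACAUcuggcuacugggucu
Mouse miR-29a-3p: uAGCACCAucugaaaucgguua
Mouse miR-29b-3p: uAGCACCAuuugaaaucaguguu
Mouse miR-29c-3p: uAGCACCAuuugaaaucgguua
Mouse miR-22-3p: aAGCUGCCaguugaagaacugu
In these records the 7 loci carry 6 distinct mature strands in 3 seed families. The strands of miR-221 and miR-222 have their first 8 bases in common, and miR-29a and miR-29b their first 9. Mir29b-1 and Mir29b-2 give an identical strand from both loci. The seed of miR-22 matches that of miR-29 at 4 of 7 positions and that of miR-221 at 0 of 7. The mouse hairpins of miR-221 and miR-222 are 504 bases apart on the same strand, those of miR-29a and miR-29b-1 275 bases, and those of miR-29b-2 and miR-29c 426 bases.

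The array values are log2 signals, a scale inferred from their range and not stated by the table. The median over all probe sets of the mean log2 signal was 4.43, which is used below as the limit of dim signal, because the table holds no detection calls. Of the microRNA-named probe sets, 65.3% had a mean at or under this limit, against 31.7% of all named probe sets. Correlations across the 16098 named probe sets, which are not independent replicates, were 0.995 between the F5446 arrays, 0.993 between the Ctrl arrays and 0.944 to 0.946 between arrays of different groups. In limma's test at an adjusted p under 0.05, 17.7% of named probe sets were higher after F5446 (2855) and 22.2% were lower (3566), or 3518 and 2925 once every array was shifted to a common median. This centring adds 0.11 to every log2 difference. SUV39H1 itself fell 3.32-fold, with log2 signals of 7.47 and 7.36 on the F5446 arrays and 9.12 and 9.18 on the Ctrl arrays (adjusted p = 5.83e-07). A second, dimmer probe set of SUV39H1 fell 2.28-fold (adjusted p = 0.00148). SUV39H2, a relative of SUV39H1, fell 2.12-fold (adjusted p = 1.87e-05).

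Of 9 colon epithelial markers listed, 7 were measured, and CDH1 and CDH17 had no named probe set. Of the 7, 5 fell (71.4%) and 1 rose (14.3%), with a median log2 difference of -0.71. Over all genes, 1 probe set a gene, 22.5% were called lower and 18.1% higher. EPCAM, an epithelial adhesion molecule, had signals of 10.23 and 10.34 after F5446 against 10.97 and 11.12 in Ctrl, and KRT18, a keratin of simple epithelia, 10.69 and 10.71 against 11.80 and 11.82. VIL1, a brush-border protein, had 6.37 and 6.47 after F5446 against 10.35 and 10.23 in Ctrl. The marker that rose, the carcinoembryonic antigen gene CEACAM5, had 6.33 and 6.44 after F5446 against 4.62 and 4.30 in Ctrl (3.80-fold, adjusted p = 1.47e-05). The calls of KRT8 and CDX2 were lost without F5446 replicate 2 (adjusted p = 0.265 and 0.0511) and without Ctrl replicate 2 (0.0962 and 0.0524), and that of KRT8 also without Ctrl replicate 1 (0.268). KRT8 likewise missed the threshold with the arrays centred (0.0851), after quantile normalization (0.0515), without the intensity trend (0.115) and over all probe sets (0.143). Of 5 markers of blood, endothelial and stromal cells measured, 4 stayed under the dim limit on all arrays. The other one, the stromal gene LUM, had 4.20 and 3.83 after F5446 against 7.04 and 7.03 in Ctrl. The part of these markers in the values of the microRNA loci was not tested.

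The 4 picked loci were all higher after F5446, with log2 differences of 3.04 to 3.75, or about 8-fold to 13-fold. These differences are the reason the loci were chosen, so they are described here without a test. Both F5446 arrays lay above both Ctrl arrays for each of the 4, which held for 28.2% of all named probe sets and 26.5% of the microRNA-named ones.

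**Figure D1:**
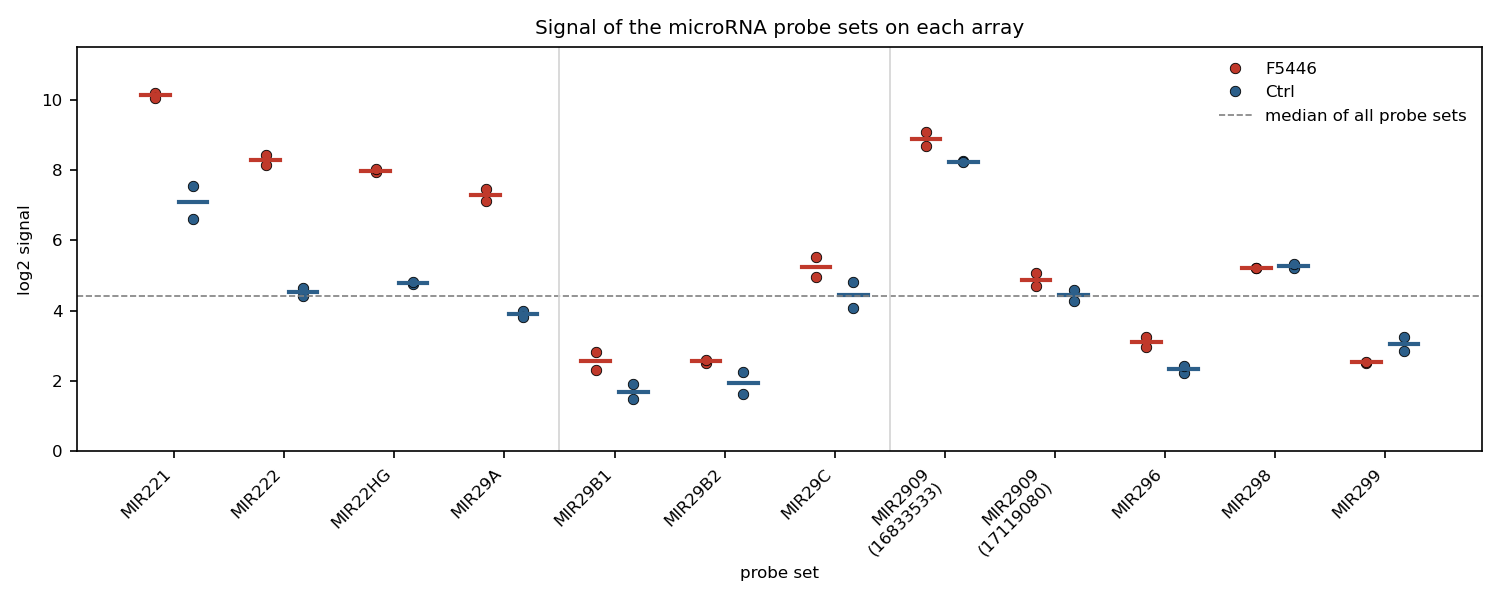
Log2 signal (vertical axis) of each of the 12 probe sets (horizontal axis) on the 2 F5446 arrays (red, left of each pair) and the 2 Ctrl arrays (blue, right); points are arrays, bars are group means, and the dashed line is the median of all probe sets. The red and blue points of MIR221, MIR222, MIR22HG and MIR29A are at least 2.51 apart, while those of the other 8 probe sets lie close together.

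MIR221, which encodes the hairpin of miR-221, had log2 signals of 10.19 and 10.06 on the F5446 arrays, against 7.55 and 6.62 on the Ctrl arrays. Its group means were 10.1 ± 0.087 after F5446 and 7.09 ± 0.66 in Ctrl (SD, n = 2 each), a log2 difference of 3.04 ± 0.24 (SE), or 8.22-fold. The Ctrl arrays differed from each other by 0.93, a larger gap than at all but 3.48% of microRNA-named probe sets, where the median gap between Ctrl arrays was 0.23. The F5446 arrays differed by 0.12. The difference had the largest SE of the 4, and the fold change ran from 5.96 without Ctrl replicate 2 to 11.3 without Ctrl replicate 1.

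MIR222, the neighbouring hairpin locus, had 8.44 and 8.13 after F5446, against 4.42 and 4.66 in Ctrl. The means were 8.29 ± 0.22 after F5446 and 4.54 ± 0.17 in Ctrl (SD, n = 2 each), a log2 difference of 3.75 ± 0.14 (SE), or 13.4-fold. Both Ctrl values lay near the dim limit and both F5446 values well above it. Although MIR221 and MIR222 are read from hairpins of a common primary transcript, their log2 differences were 0.71 apart. The size of this gap depended on the Ctrl arrays. Without Ctrl replicate 1 the differences were 3.503 for MIR221 and 3.628 for MIR222. Without Ctrl replicate 2 they were 2.574 and 3.865. The Ctrl array with the higher MIR221 signal, replicate 1, had the lower MIR222 signal.

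MIR29A, the hairpin locus of miR-29a, had 7.13 and 7.45 after F5446, against 3.99 and 3.83 in Ctrl. The means were 7.29 ± 0.23 after F5446 and 3.91 ± 0.11 in Ctrl (SD, n = 2 each), a log2 difference of 3.38 ± 0.16 (SE), or 10.4-fold. Both Ctrl arrays were under the dim limit, so the fold change may understate the true one. Leaving out any 1 array gave 9.31-fold to 11.7-fold.

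MIR22HG, the host transcript of miR-22, had 7.94 and 8.03 after F5446, against 4.76 and 4.83 in Ctrl. The means were 7.99 ± 0.061 after F5446 and 4.79 ± 0.053 in Ctrl (SD, n = 2 each), a log2 difference of 3.19 ± 0.11 (SE), or 9.14-fold. Replicates were closest here among the 4 loci, 0.09 apart after F5446 and 0.08 apart in Ctrl. It is the one member of the 4 named for a host RNA and not for a hairpin.

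The other loci of the miR-29 family had smaller differences than MIR29A. MIR29B1, the partner of MIR29A in their common primary transcript, had 2.33 and 2.82 after F5446 against 1.91 and 1.49 in Ctrl, a log2 difference of 0.88 ± 0.22 (SE). All 4 values were under the dim limit, so this log2 difference may understate the true one. As measured it was 2.51 below that of MIR29A. MIR29B2 had 2.52 and 2.61 after F5446 against 2.25 and 1.64 in Ctrl, a log2 difference of 0.62 ± 0.21 (SE), again under the limit on all arrays. MIR29C, its partner, had 4.95 and 5.52 after F5446 against 4.09 and 4.83 in Ctrl, a log2 difference of 0.77 ± 0.27 (SE). Both F5446 arrays lay above both Ctrl arrays at these 3 loci, which held for 26.5% of the microRNA-named probe sets. At MIR29C the nearest F5446 and Ctrl arrays were only 0.12 apart. The gap between replicates there, 0.57 after F5446 and 0.74 in Ctrl, came close to the difference itself. Without 1 array the log2 difference ran from 0.40 to 1.14 for MIR29C, from 0.32 to 0.92 for MIR29B2 and from 0.63 to 1.12 for MIR29B1. With Ctrl replicate 1 left out MIR29C was at 0.40, and with Ctrl replicate 2 left out MIR29B2 was at 0.32. Since the mature miR-29b strand is the same from both of its loci, the 2 hairpins are partly alike in sequence, and their probe sets may share signal.

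The 5 probe sets that share only the prefix belong to other microRNAs. The brighter probe set of MIR2909 (16833533) had 9.08 and 8.68 after F5446 against 8.26 and 8.22 in Ctrl, a log2 difference of 0.64, and its second (17119080) 5.08 and 4.69 against 4.28 and 4.60, a difference of 0.45. MIR296 had 3.25 and 2.96 after F5446 against 2.24 and 2.44 in Ctrl, a difference of 0.76, under the dim limit throughout. MIR299 had 2.51 and 2.55 after F5446 against 2.84 and 3.26 in Ctrl, a difference of -0.52. MIR298 had 5.21 and 5.22 after F5446 against 5.22 and 5.33 in Ctrl. Its difference of -0.06 turned to 0.06 with the arrays centred and 0.04 after quantile normalization. Both F5446 arrays lay below both Ctrl arrays for MIR298 and MIR299, as they did for 37.4% of all named probe sets. At MIR298 the nearest arrays were almost equal, at 5.216 after F5446 and 5.218 in Ctrl.

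The 4 picked loci, chosen for their rise, held the 4 largest log2 differences among all 1264 microRNA-named probe sets (1098 symbols, some with several probe sets). They were also the only such probe sets with a difference of at least 3 (8-fold), a size reached by 0.316% of the microRNA-named and 0.193% of all named probe sets. Over all named probe sets MIR222 ranked 7, MIR29A 18, MIR22HG 23 and MIR221 31. These ranks and sizes follow from the choice and are no separate result. The next microRNA-named probe set was MIR31HG, the host RNA of miR-31, with 6.60 and 6.49 after F5446 against 3.66 and 4.31 in Ctrl, a log2 difference of 2.56. The class as a whole had a median log2 difference of 0.02, against -0.05 over all named probe sets. Of the class, 11.9% were called higher (151) and 4.91% lower (62), against 17.7% and 22.2% of all named probe sets. Dim probe sets made up 65.3% of the class (825) and 31.7% of all named ones (5109), so these shares compare unlike signal levels. Without dim probe sets 103 of the class were higher and 34 lower, against 2841 and 3450 of all named probe sets. The counts for the class were 226 and 44 with the arrays centred, and 137 and 59 with 1 probe set a gene. With p-values adjusted over all probe sets the class counts were 93 and 37. Without F5446 replicate 1 they were 84 and 38, and without F5446 replicate 2 they were 107 and 33. MIR29B1 ranked 77, MIR29C 91 and MIR29B2 123 within it.

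**Figure D2:**
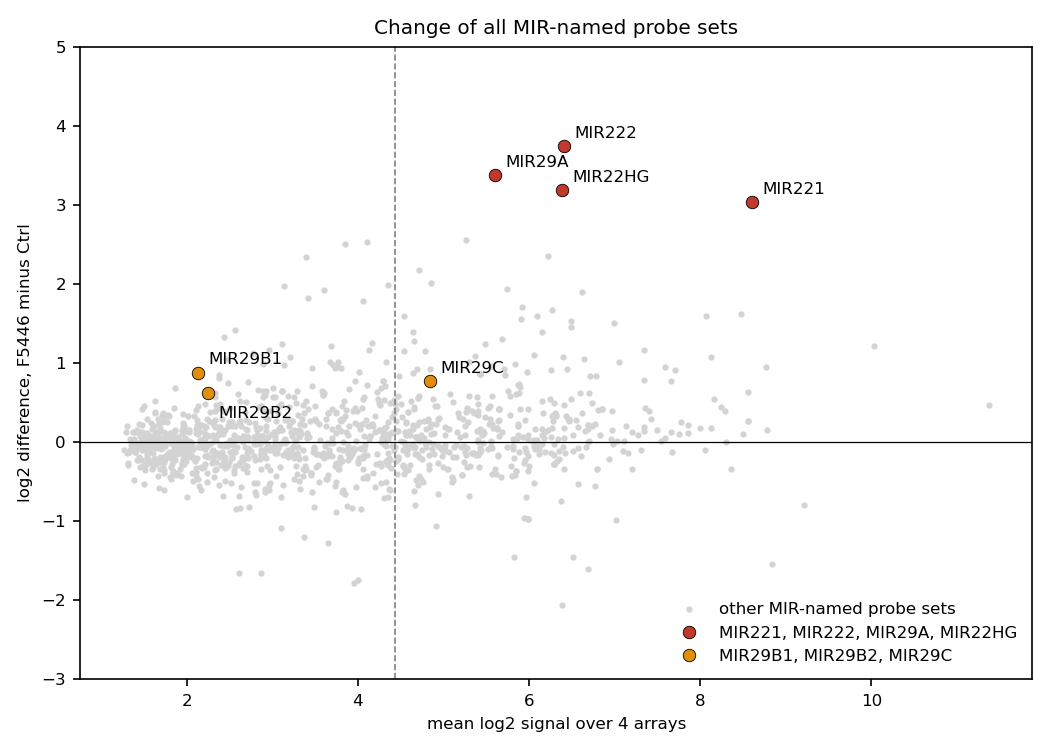
Log2 difference, F5446 minus Ctrl (vertical axis), against the mean log2 signal over the 4 arrays (horizontal axis) for the 1264 probe sets named for microRNA loci; the dashed line is the median of all probe sets, 4.43. The picked loci (red), chosen for their rise, sit above every other point, between 3.04 and 3.75. MIR29B1, MIR29B2 and MIR29C (orange) lie between 0.62 and 0.88.

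Genes outside the microRNA class with the most similar profile were sought for each picked locus. Likeness was the root mean square difference, over the 4 arrays, between profiles centred on their own mean. With 2 groups of 2 arrays this measure mainly finds genes with a similar difference between the groups. MIR22HG was nearest to HBEGF, an EGFR ligand, at 0.035 log2 units. HBEGF had 9.05 and 9.06 after F5446 against 5.78 and 5.86 in Ctrl. PMAIP1, the gene of the pro-apoptotic protein NOXA, followed at 0.061 and the membrane protein gene EMP1 at 0.063. MIR29A was nearest to DUSP10, a MAP kinase phosphatase, at 0.075, with 8.05 and 8.41 after F5446 against 4.75 and 4.77 in Ctrl. Next came SNAI2, the transcription repressor SLUG, at 0.10 and the interleukin 6 receptor gene IL6R at 0.11.

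MIR222 was nearest to the pseudogene ADAM20P1, at 0.097 log2 units, and then to CD68, a lysosomal glycoprotein gene, at 0.15 and LINC00622 at 0.16. The distance from MIR222 to MIR221 was larger, at 0.55. MIR221 was nearest to DDIT3, which encodes the stress transcription factor CHOP, at 0.15. DDIT3 had 8.12 and 8.28 after F5446 against 5.63 and 4.95 in Ctrl, and so, like MIR221, a wide gap between the Ctrl arrays with replicate 1 the higher. The cytokine gene LIF (0.15) and RHBDF1 (0.20) came next and had the same order of Ctrl arrays. That shared order follows largely from the search for likeness to MIR221 on these arrays. Among the picked loci the closest pair was MIR22HG and MIR29A, at 0.15.

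**Figure D3:**
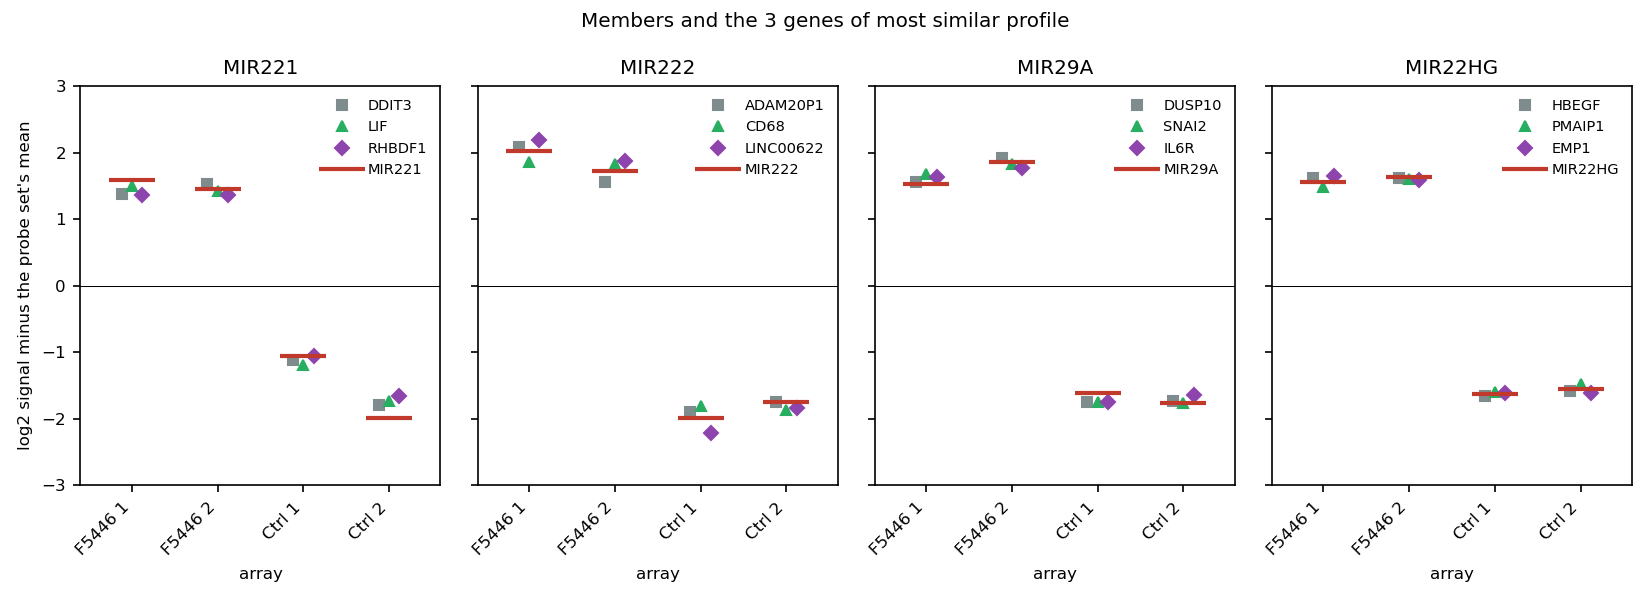
Log2 signal minus the probe set's own mean (vertical axis) on each of the 4 arrays (horizontal axis), 1 panel for each picked locus (red bars) with its 3 most similar genes (other symbols). In the MIR221 panel all 4 profiles have Ctrl replicate 1 above Ctrl replicate 2, an order that the search for likeness favours. The MIR22HG panel has the tightest match, at 0.035 to 0.063 log2 units.

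Genes reported as targets of these microRNAs changed in both directions. The reference for each count is that over all genes, 1 probe set a gene, where 18.1% were called higher and 22.5% lower, with a median log2 difference of -0.05. It is dimmer than the lists: 31.7% of named probe sets were at or under the dim limit. On each list 13 to 15 genes were above that limit on all arrays. Without the 5109 dim ones among the 16098 named probe sets, 2841 were called higher and 3450 lower, against 2855 and 3566 with them. The shares among brighter probe sets are therefore larger than this reference. A list share above the reference need not exceed them. The lists hold targets reported in various human and rodent cells, and were drawn up with earlier results of these data known.

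Of 23 genes reported as targets of miR-221 or miR-222, 17 were measured, of which 7 rose (41.2%), 4 fell (23.5%) and 6 did not pass. Their median log2 difference was 0.10 and their mean 0.45. The CDK inhibitor genes CDKN1B and CDKN1C had no named probe set and were not analysed here. DDIT4, an inhibitor of mTORC1 signalling, had 9.20 and 9.12 after F5446 against 6.42 and 6.43 in Ctrl, and rose 6.67-fold (adjusted p = 8.25e-08). ETS1, a transcription factor, had 9.53 and 9.83 after F5446 against 7.54 and 7.41 in Ctrl, and rose 4.61-fold (adjusted p = 7.01e-07). For both genes the groups were far apart compared with the gap between replicates.

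SOCS3, a suppressor of cytokine signalling, had 7.39 and 7.25 after F5446 against 5.40 and 6.32 in Ctrl (2.75-fold, adjusted p = 0.00141), with a wide gap between the Ctrl arrays. The metalloproteinase inhibitor gene TIMP3 rose 2.22-fold (adjusted p = 4.12e-05), while its second, dim probe set had a difference of -0.06. PDLIM2, a PDZ and LIM domain protein gene, rose 2.20-fold (adjusted p = 5.08e-05) and TIMP2, a relative of TIMP3, 1.81-fold (adjusted p = 1.24e-05), both named after their values were seen. BBC3, which encodes the BH3-only protein PUMA, had 6.09 and 6.36 after F5446 against 5.68 and 5.73 in Ctrl (1.44-fold, adjusted p = 0.0139). That call was lost without F5446 replicate 2 (adjusted p = 0.135), Ctrl replicate 1 (0.0795) or Ctrl replicate 2 (0.0629), and over all probe sets (0.0524). The 4 that fell, named after their values were seen, were APAF1, the apoptosome scaffold (log2 difference -0.81), RECK, a membrane inhibitor of metalloproteinases (-0.64), the AP-1 gene FOS (-0.56) and the adhesion molecule gene ICAM1 (-0.45). RECK missed the threshold without F5446 replicate 1 (adjusted p = 0.0835), F5446 replicate 2 (0.0633) or Ctrl replicate 1 (0.0787). ICAM1 missed it without F5446 replicate 1 (0.221), F5446 replicate 2 (0.0862), Ctrl replicate 1 (0.0888) or Ctrl replicate 2 (0.168), and with the arrays centred (0.115). The count of falls was 2 without either F5446 array or without Ctrl replicate 1. The receptor kinase gene KIT stayed under the dim limit on all arrays.

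Of 35 genes reported as targets of miR-29, 17 were measured, of which 5 rose (29.4%), 6 fell (35.3%) and 6 did not pass. The median log2 difference of -0.09 turned to 0.03 with the arrays centred and 0.04 after quantile normalization. Fibrillar and basement membrane collagen genes, the best known targets, had no named probe set and were not analysed here. DNMT3B, a de novo DNA methyltransferase, had 5.51 and 5.59 after F5446 against 7.12 and 6.87 in Ctrl, and fell 2.73-fold (adjusted p = 2.46e-05). DNMT3A, the related enzyme, had 6.22 and 6.11 after F5446 against 6.74 and 6.72 in Ctrl, and fell 1.48-fold (adjusted p = 0.00299). At both genes the F5446 arrays lay below the Ctrl arrays, which held for 37.4% of all named probe sets.

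TET1, which oxidises methylated cytosine, fell 2.42-fold (adjusted p = 1.57e-05), and its second probe set differed by -0.72. GRN, which encodes progranulin, fell 2.40-fold (adjusted p = 6.66e-07). In the other direction, VEGFA, an angiogenic growth factor, had 8.79 and 8.64 after F5446 against 6.45 and 6.52 in Ctrl, and rose 4.69-fold (adjusted p = 3.81e-07). MCL1, an anti-apoptotic BCL2 relative, had 9.68 and 9.58 after F5446 against 8.74 and 8.65 in Ctrl, and rose 1.92-fold (adjusted p = 9.27e-06). The other 3 that rose, named after their values were seen, were the transcription factor gene KLF4 (log2 difference 0.79), LOXL2, a lysyl oxidase (0.48), and BACE1, the beta-secretase (0.40). LOXL2 missed the threshold without F5446 replicate 1 (adjusted p = 0.0512), F5446 replicate 2 (0.224), Ctrl replicate 1 (0.0655) or Ctrl replicate 2 (0.155). BACE1 missed it without F5446 replicate 1 (0.11) or Ctrl replicate 2 (0.0705), and the count of rises was 3 without either of these arrays.

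Of 22 genes reported as targets of miR-22, 16 were measured, of which 4 rose (25%), 4 fell (25%) and 8 did not pass. The median log2 difference was 0.02 and the mean -0.09. ERBB3, a receptor of the EGFR family, had 6.38 and 6.42 after F5446 against 8.41 and 8.37 in Ctrl, and fell 3.97-fold (adjusted p = 4.96e-07). SIRT1, a protein deacetylase, had 10.14 and 10.21 after F5446 against 8.86 and 8.84 in Ctrl, and rose 2.51-fold (adjusted p = 6.26e-07). These were the widest separations on the list, in opposite directions. The ligand gene BMP7 fell 2.30-fold (adjusted p = 3.78e-05) and the histone deacetylase gene HDAC4 1.75-fold (adjusted p = 0.000127), while the second probe set of HDAC4, with a difference of -0.18, did not pass. The remaining calls, named after their values were seen, were rises of the transcription factor gene SP1 (log2 difference 0.58), the tubulin deacetylase gene HDAC6 (0.51) and the coactivator gene NCOA1 (0.45), and a fall of the cell cycle kinase gene CDK6 (-0.48). HDAC4 and CDK6 are also on the miR-29 list.

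**Figure D4:**
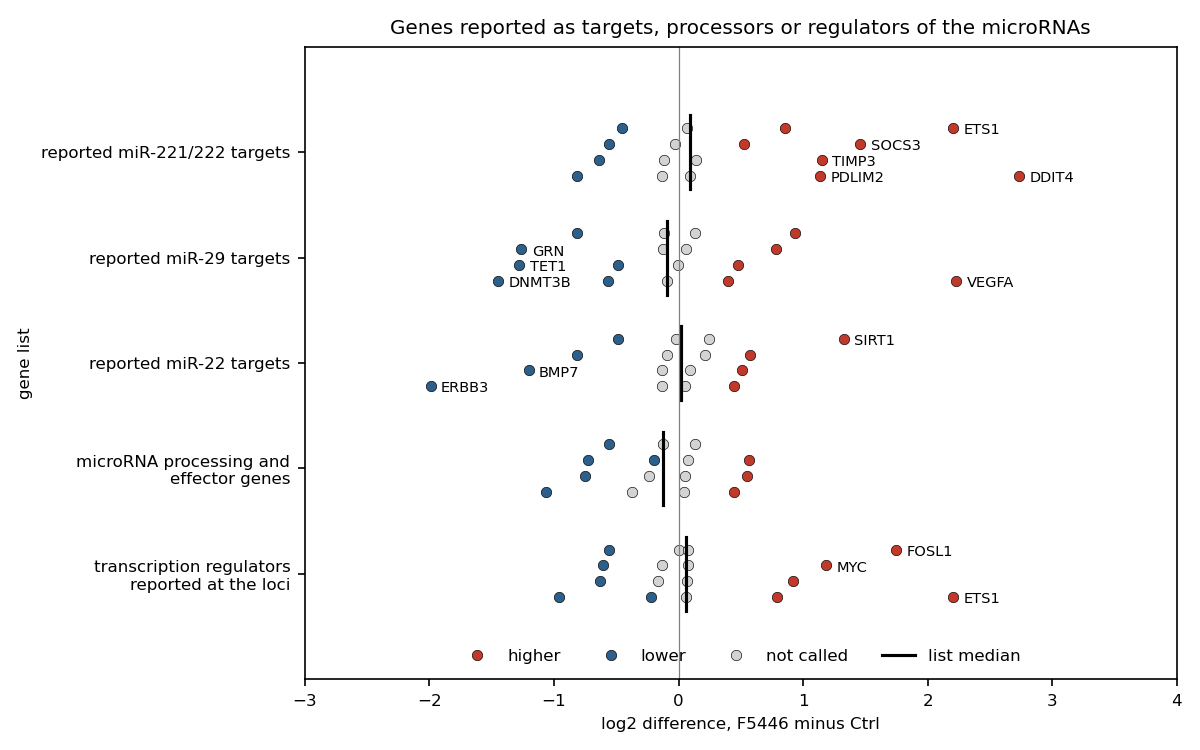
Log2 difference, F5446 minus Ctrl (horizontal axis), of every measured gene on 5 lists (vertical axis), coloured by its call at an adjusted p under 0.05; vertical bars are list medians. On each list called genes lie on both sides of 0, and the medians lie between -0.12 and 0.10.

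Genes that process microRNAs or act with them changed in both directions. Of 26 listed, 15 were measured, of which 3 rose (20%), 5 fell (33.3%) and 7 did not pass. Over all genes 18.1% were called higher and 22.5% lower, with larger shares among brighter probe sets. The median log2 difference was -0.12, or -0.01 with the arrays centred, where 5 rose and 4 fell. DROSHA, DICER1 and the Argonaute genes had no named probe set and were not analysed here. DGCR8, the RNA-binding partner of Drosha, had 7.11 and 6.92 after F5446 against 7.85 and 7.68 in Ctrl, and fell 1.68-fold (adjusted p = 0.00052). SRRT, which links capped primary transcripts to the processing complex, had 7.79 and 7.84 after F5446 against 8.96 and 8.79 in Ctrl, and fell 2.09-fold (adjusted p = 1.34e-05). KHSRP, which aids the processing of some precursors, fell 1.65-fold (adjusted p = 2.83e-05). XPO5, exportin 5, had 9.53 and 9.50 after F5446 against 9.47 and 9.41 in Ctrl and did not pass (adjusted p = 0.415, or 0.0464 with the arrays centred).

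SND1, a nuclease associated with the silencing complex, rose 1.48-fold (adjusted p = 0.000115). The other calls, named after their values were seen, were rises of TNRC6C (log2 difference 0.55) and TNRC6A (0.45), scaffold proteins that bind Argonaute, and falls of the exonuclease gene DIS3L2 (-0.56) and the helicase gene DDX5 (-0.20). TNRC6A missed the threshold without F5446 replicate 1 (adjusted p = 0.0578) or F5446 replicate 2 (0.0722). DDX5 missed it without F5446 replicate 1 (0.0668), F5446 replicate 2 (0.114) or Ctrl replicate 1 (0.0881), and with the arrays centred (0.273). The count of rises was 5 without Ctrl replicate 1 and ran from 2 to 5 when 1 array was left out.

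Transcription regulators reported to act at the MIR221 and MIR222, MIR29 or MIR22HG loci also changed both ways. Of 19 listed, 17 were measured, of which 5 rose (29.4%), 5 fell (29.4%) and 7 did not pass, with a median log2 difference of 0.06. The shares over all genes were 18.1% higher and 22.5% lower, and larger among brighter probe sets. FOSL1, an AP-1 subunit, had 11.87 and 11.80 after F5446 against 10.16 and 10.02 in Ctrl, and rose 3.35-fold (adjusted p = 1.59e-07). MYC, known as a repressor of the MIR29 loci, had 11.59 and 11.66 after F5446 against 10.41 and 10.46 in Ctrl, and rose 2.28-fold (adjusted p = 4.47e-07). EZH2, the methyltransferase of the Polycomb complex, had 9.08 and 9.00 after F5446 against 10.03 and 9.97 in Ctrl, and fell 1.95-fold (adjusted p = 4.32e-06). ETS1, described above among the targets, had the largest difference on the list. The remaining calls, named after their values were seen, were rises of the AP-1 gene JUNB (log2 difference 0.92) and the NF-kB subunit gene RELA (0.79), and falls of the deacetylase genes HDAC3 (-0.63) and HDAC1 (-0.61) and of FOS and JUND. JUND, with a difference of -0.22, missed the threshold without F5446 replicate 1 (adjusted p = 0.186), F5446 replicate 2 (0.12), Ctrl replicate 1 (0.137) or Ctrl replicate 2 (0.0787), and with the arrays centred (0.323). JUN had 9.75 and 9.72 after F5446 against 9.79 and 9.67 in Ctrl and did not pass (adjusted p = 0.985).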

How the data were processed

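The deposited table holds 1 log2 signal per probe set and array. Its scale is not stated: the values reach 13.8, above 11.09 (the natural log of a 16-bit range) and under 16, so log2 was inferred. The authors used Partek, per the submitters' processing notes; otherwise the sources used here do not give the handling of background, scaling or probe set summary. The organism label reads mouse, but SW620 is of human origin and the annotated symbols are human ones, so human genes were assumed. The annotation gives 16098 probe sets 1 symbol each, 0 several, and leaves 37519 unnamed here.

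The values were fitted as deposited with limma 3.58.1 in R 4.3.3 (lmFit and eBayes with trend, 4 arrays, treatment as sole term). Two-sided p-values were adjusted over all named probe sets by the Benjamini-Hochberg method, with a threshold of 0.05. Listed genes are represented by their probe set of highest mean. Precision is limited by the number of arrays, 2 per group.

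Genes named were the members, the 3 most similar genes of each picked locus, the 4 largest called and separated differences of each list, and a few key processing and target genes. Members and lists were chosen with earlier results of these data known. Neighbouring genes of the loci were planned but not analysed here, as the gene table at hand is of mouse. Mature strands are from mouse RefSeq (GRCm38.p6) and matched by microRNA name.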

Additional observations from a re-analysis of the deposited data

How the results depend on the processing

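The 4 picked loci kept positive log2 differences under all 12 alternatives, which their choice for a large rise largely fixed in advance. Several of these alternatives alter only the test and leave the difference as it was. MIR22HG moved by more than the SDs of its groups (0.061 after F5446 and 0.053 in Ctrl), to 3.31 with arrays centred and 3.26 after quantile normalization. With 1 array left out the log2 differences ran from 2.57 to 3.50 for MIR221, 3.59 to 3.90 for MIR222, 3.22 to 3.54 for MIR29A and 3.15 to 3.24 for MIR22HG. Testing all probe sets gave 6274 higher and 5483 lower, with 93 and 37 among the microRNA-named; without dim probe sets 34 of these were lower, fewer being tested. With 1 array left out, 84 to 131 were higher and 33 to 63 lower. Falls among targets of miR-221 and miR-222 then ran from 2 to 3, rises among miR-29 targets from 3 to 4, and rises among processing genes from 2 to 5 (5 with arrays centred). Replicate numbers share only a number (correlation of deviations 0.045, from 2 arrays a group), and with the replicate block 2871 probe sets were higher and 3526 lower. That block ended 1 listed call, LOXL2 (adjusted p = 0.0534). Of 52 listed genes examined, markers included, 41 kept their side of the threshold under every alternative and 0 changed sign. The 52 were the genes called in the fit of the deposited values and XPO5, so other genes that did not pass were not followed. Rises among miR-22 targets went from 4 to 5 with arrays centred, after quantile normalization or without dim probe sets. Dim signal limits MIR29B1 and MIR29B2 on all arrays and MIR29A in Ctrl.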
